A study of Mus musculus with 4 samples.

Results

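The genes described here mark how lymphocytes are brought into, placed within and released from lymph nodes. They are Glycam1, Madcam1, Ccl21a, Ccl19, Cxcl13, Ccr7, Cxcr5, S1pr1 and Ccr9, which make up 9 of the 31053 genes listed in each library. They were chosen by name as genes of node vessels, node stroma and dendritic cells and as receptors of naive lymphocytes. Earlier results of these data were known when they were chosen. All 9 were found in both libraries of subcutaneous adipose tissue (SAT). In tumors, 6 of them were found in the control library and 5 in the D-CAN library.

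There were 4 single-cell RNA-seq libraries, 1 per group, of FVB mice (written VFB in the labels) that were fed chow and carried subcutaneous grafts of MycCaP cells, a prostate cancer line derived from HiMyc mice. The groups were tumor and SAT from control mice given PBS, and tumor and SAT from mice given D-CAN, a peptide that homes to adipose stromal cells and is joined to an amphipathic sequence. SAT libraries held stromal/vascular fraction cells of the inguinal pad, and tumor libraries held cancer and stromal/vascular cells. In each, dead and red blood cells had been removed before capture. The mouse inguinal fat pad surrounds the inguinal lymph node, and neither the labels nor the methods say whether the node was taken out or whether a library pools several mice.

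With 1 library per group, no test between groups was possible, because cells are not replicates. Levels are CPM, unique molecular identifiers (UMIs, each marking 1 captured RNA molecule) of a gene summed over cells and scaled by all UMIs of those cells, with exact Poisson 95% intervals. Shares of cells have exact Clopper-Pearson 95% intervals. Ratios have exact conditional binomial 95% intervals. All of these cover counting error alone and leave out the variation between mice. For a count of 0, the limit given is that of 3 counts. Cells with at least 200 genes were kept, which left 2841 control and 1897 D-CAN cells in SAT and 2761 and 1487 in tumors. The kept SAT cells held 6660758 UMIs (median 1707 per cell) in the control library and 7414246 UMIs (median 2950) in the D-CAN library. The tumor libraries held 17931020 and 15615176 UMIs. Any pair of libraries shared 0 to 2 cell barcodes.

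Naive lymphocytes leave the blood in lymph nodes through high endothelial venules. These vessels carry sulfated, fucosylated ligands for L-selectin, among them the mucin-like protein GlyCAM-1, encoded by Glycam1. Madcam1 encodes the addressin that binds the integrin α4β7, and is also made by some node stromal and lymphatic cells. The chemokines CCL21 and CCL19 from T zone stroma draw cells with the receptor CCR7, while CXCL13 from follicular stroma draws B cells with CXCR5. S1PR1, a receptor for sphingosine-1-phosphate, lets lymphocytes leave the node again and is also abundant on endothelium. CCR9 responds to CCL25 of thymus and gut, and is known on plasmacytoid dendritic cells and on some CD8 T cells.

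On GRCm38, Glycam1 (ENSMUSG00000022491) lies on chromosome 15 from 103562759 to 103565081, and Madcam1 (ENSMUSG00000020310) on chromosome 10 from 79664559 to 79668537. The chemokine genes are Ccl21a (ENSMUSG00000094686, chromosome 4 from 42772860 to 42773993), Ccl19 (ENSMUSG00000071005, chromosome 4 from 42754525 to 42756577) and Cxcl13 (ENSMUSG00000023078, chromosome 5 from 95956951 to 95961068). The receptor genes are Ccr7 (ENSMUSG00000037944, chromosome 11 from 99144196 to 99155077), Cxcr5 (ENSMUSG00000047880, chromosome 9 from 44511787 to 44561877), S1pr1 (ENSMUSG00000045092, chromosome 3 from 115710433 to 115715072) and Ccr9 (ENSMUSG00000029530, chromosome 9 from 123678439 to 123784330). The promoters of Glycam1 and Cxcl13 are shown because these genes carry most of the vessel and stromal signal described below. That of Madcam1, a rare gene here, is also shown, and it alone held matches to the consensus marked below. RefSeq entries (GRCm38.p6) of 250 bases before to 50 bases after the start site were found for 6 of the 9 genes, and there was no entry for Ccr7, Cxcr5 or S1pr1. The capitals mark matches to the consensus of NF-kappaB, a factor activated by the lymphotoxin beta receptor, which were sought on both strands.
Glycam1 (chr15:103565032-103565331, minus strand): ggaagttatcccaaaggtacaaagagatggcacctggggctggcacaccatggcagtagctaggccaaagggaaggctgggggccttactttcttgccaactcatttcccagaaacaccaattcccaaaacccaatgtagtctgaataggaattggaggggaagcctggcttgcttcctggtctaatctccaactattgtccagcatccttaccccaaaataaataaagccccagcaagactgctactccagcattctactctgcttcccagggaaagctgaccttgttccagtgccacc
Madcam1 (chr10:79664309-79664608, plus strand): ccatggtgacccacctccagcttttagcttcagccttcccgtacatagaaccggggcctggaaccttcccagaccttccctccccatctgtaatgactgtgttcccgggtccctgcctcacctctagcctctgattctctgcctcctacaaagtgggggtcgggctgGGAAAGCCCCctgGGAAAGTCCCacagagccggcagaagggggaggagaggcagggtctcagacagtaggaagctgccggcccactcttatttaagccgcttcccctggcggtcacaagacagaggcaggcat
Cxcl13 (chr5:95956689-95956988, plus strand): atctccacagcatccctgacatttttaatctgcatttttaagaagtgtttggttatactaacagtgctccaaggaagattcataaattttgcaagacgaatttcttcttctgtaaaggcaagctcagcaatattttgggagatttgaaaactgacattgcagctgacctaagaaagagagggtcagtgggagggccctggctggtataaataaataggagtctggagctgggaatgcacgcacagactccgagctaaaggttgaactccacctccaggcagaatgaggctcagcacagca
The Madcam1 promoter held 2 matches, which began 83 and 70 bases before the start site and lay on the strand opposite to the gene. The promoters of Glycam1, Ccl21a, Ccl19, Cxcl13 and Ccr9 held none. Of 32851 RefSeq promoters of the same length, 8.46% held a match. A match describes these letters and is not a measured binding site. Sites that differ from this consensus were not sought, so a promoter without a match may still hold one.

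Glycam1 was among the abundant members in SAT and nearly absent from tumors. There were 893 Glycam1 UMIs in control SAT (134 CPM, interval 125 to 143) and 1087 in D-CAN SAT (147 CPM, interval 138 to 156). The tumors held 1 Glycam1 UMI in the control library and 0 in the D-CAN library, a limit of 0.192 CPM. Both SAT libraries were therefore far above both tumor libraries, while their own levels lay close together. The UMIs came from few cells, and any UMI was held by 31 of 2841 cells in control (1.09%, interval 0.743 to 1.54) and by 54 of 1897 under D-CAN (2.85%, interval 2.15 to 3.70). In the D-CAN library, 1 cell held 875 of the 1087 Glycam1 UMIs (80.5%). The ratio of D-CAN over control was 1.09 (interval 1.0 to 1.2) over all cells and 0.251 (interval 0.214 to 0.292) without the cell with the most Glycam1 UMIs in each library.

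Madcam1, Ccl21a and Ccl19 were rare. Madcam1 had 9 UMIs in 6 control SAT cells (1.35 CPM, interval 0.618 to 2.57) and 18 UMIs in 2 D-CAN cells (2.43 CPM, interval 1.44 to 3.84), of which 16 were in 1 cell. No Madcam1 UMI was found in tumors, where the limits were 0.167 CPM in the control and 0.192 in the D-CAN library. Ccl19 had 8 UMIs in 5 control SAT cells (1.2 CPM) and 10 UMIs in 7 D-CAN cells (1.35 CPM), against 1 and 0 in the tumors. Ccl21a had 5 UMIs in 4 control SAT cells (0.751 CPM) and 12 UMIs in 7 D-CAN cells (1.62 CPM). In tumors, Ccl21a had 0 UMIs in the control and 26 in the D-CAN library (1.67 CPM), so that its level in D-CAN tumor was close to that in D-CAN SAT. Of those 26 UMIs, 25 were in 1 endothelial-like cell of 600 UMIs. This cell also held 2 UMIs of Mmrn1 and 1 of Reln, genes known from lymphatic endothelium. It held 0 UMIs of the lymphatic genes Prox1, Lyve1 and Flt4 and 0 of the endothelial gene Pecam1. Ccl21a counts are uncertain, because the genome holds near-identical copies. Of the 821 windows of 50 bases in its 870-base transcript, 71.6% also occur in the copy Gm21541, and at 90 bases the share was 54.8% of 781 windows. In the last 500 bases, at the 3′ end, the shares were 75.8% and 63.7%. The listed copies and second IDs of Ccl21a and Ccl19 all had 0 UMIs. The part of these copies in the low counts of both genes was not tested.

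Cxcl13, the B cell attractant of follicles, had 240 UMIs in control SAT (36.0 CPM, interval 31.6 to 40.9) and 1168 UMIs in D-CAN SAT (158 CPM, interval 149 to 167). The tumors held 34 Cxcl13 UMIs in the control (1.90 CPM) and 28 in the D-CAN library (1.79 CPM). D-CAN SAT was the highest of the 4 libraries and control SAT came next. As with Glycam1, few cells carried the gene, with 26 control SAT cells (0.915%, interval 0.599 to 1.34) and 33 D-CAN cells (1.74%, interval 1.2 to 2.43) holding any. The 3 cells with the most Cxcl13 held 82.9% of its UMIs in control SAT and 73.9% in D-CAN SAT.

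The receptor genes were spread over many cells. Ccr7 had 923 UMIs in 528 of 2841 control SAT cells (139 CPM, interval 130 to 148) and 1566 UMIs in 683 of 1897 D-CAN cells (211 CPM, interval 201 to 222). In tumors Ccr7 had 13 and 21 UMIs (0.725 and 1.34 CPM in control and D-CAN). Cxcr5, the CXCL13 receptor, had 115 UMIs in control SAT (17.3 CPM, interval 14.3 to 20.7) and 183 in D-CAN SAT (24.7 CPM, interval 21.2 to 28.5), and 0 in either tumor library. For Ccr7 and Cxcr5 alike, D-CAN SAT was highest, control SAT second and the tumors far below.

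S1pr1 had 949 UMIs in control SAT (142 CPM, interval 134 to 152) and 978 in D-CAN SAT (132 CPM, interval 124 to 140). It was the member most frequent in tumors, with 151 UMIs in the control (8.42 CPM) and 161 in the D-CAN library (10.3 CPM). Ccr9 had 89 UMIs in 38 control SAT cells (13.4 CPM, interval 10.7 to 16.4) and 81 UMIs in 44 D-CAN cells (10.9 CPM, interval 8.68 to 13.6). In tumors Ccr9 had 17 and 13 UMIs (0.948 and 0.833 CPM). The intervals of the SAT libraries overlapped for S1pr1 and for Ccr9.

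**Figure D1:**
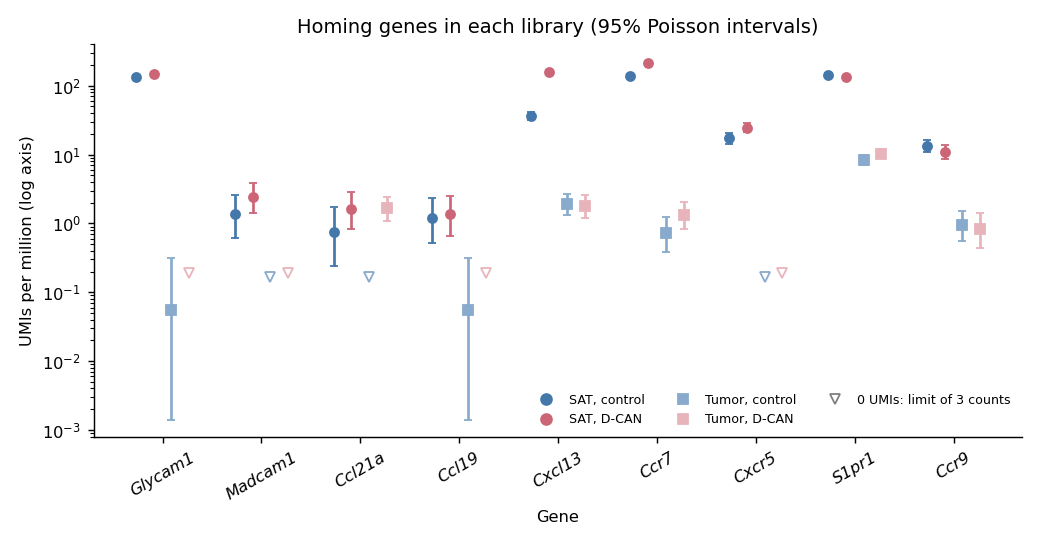
CPM (log axis) of the 9 genes in each of the 4 libraries; circles are SAT, squares are tumor, blue is control and red is D-CAN, bars are exact Poisson 95% intervals and open triangles are the limit of 3 counts where a gene had 0 UMIs. Glycam1, Cxcl13, Ccr7, Cxcr5, S1pr1 and Ccr9 lie above 10 CPM in both SAT libraries, and Madcam1, Ccl21a and Ccl19 lie between 0.751 and 2.43.

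SAT was compared with tumor within each treatment for genes that reached 20 UMIs in the pair of libraries. A difference counted as 2-fold when the ratio of levels passed that size with 0.5 UMI added to each count. In control libraries, 6 members could be compared (Glycam1, Cxcl13, Ccr7, Cxcr5, S1pr1 and Ccr9) and all 6 were at least 2-fold higher in SAT, where 29.0% of 13420 genes were 2-fold higher and 20% lower. In D-CAN libraries, 7 could be compared and the same 6 were higher, where 27.7% of 13403 genes were higher and 22.1% lower. The seventh, Ccl21a, had a ratio of 0.972 (interval 0.447 to 2.0). In control, Glycam1, Ccr7, Cxcr5 and Ccr9 reached 20 UMIs only through SAT, with 1, 13, 0 and 17 UMIs in tumor. Under D-CAN the same was true of Glycam1, Cxcr5 and Ccr9, with 0, 0 and 13 UMIs in tumor. A higher level in SAT was thus nearly fixed for these genes by the filter. The counts of members describe the list and are no test. Ccr7 was 191-fold higher in control SAT than in control tumor (interval 111 to 360) and 157-fold higher under D-CAN (interval 102 to 254). For Cxcl13 the ratios were 19.0 and 87.9, for S1pr1 16.9 and 12.8, and for Ccr9 14.1 and 13.1. Clusters marked as cancer held 1302 of 2761 cells and 81.6% of UMIs in control tumor, and 670 of 1487 cells and 81.4% of UMIs in D-CAN tumor. Without these clusters, the same members were still over 2-fold higher in SAT, with smaller ratios: Ccr7 35.2 and 30.7, Cxcl13 3.49 and 16.4, S1pr1 3.11 and 2.4, and Ccr9 2.75 and 2.44 in control and D-CAN. The Ccl21a ratio under D-CAN was then 0.188, with nearly all of its tumor UMIs in the cell described above.

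In tumors the members sat in few classes of cells. Over both tumor libraries, the endothelial-like cells held 184 of the 312 S1pr1 UMIs and the macrophage or monocyte-like cells held 107. The 62 tumor Cxcl13 UMIs included 53 in 7 fibroblast-like cells. Tumor cluster 6, which was left unnamed and whose leading genes included S100a9, Cd74 and Ltb, held 32 of the 34 Ccr7 UMIs and 29 of the 30 Ccr9 UMIs. The tumor libraries thus had receptor transcripts in leukocytes and vessels but hardly any transcripts of Glycam1, Madcam1, Ccl19 or Cxcr5.

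The kept SAT cells formed 17 clusters. These were made from variable genes without the 9 members and without the companion lists named below, and were named from marker lists. In the control library B cell-like cells made up 23.4% (interval 21.9 to 25) and in the D-CAN library 33.1% (interval 31.0 to 35.3). T cell-like cells made up 17.6% (interval 16.2 to 19.0) and 28.9% (interval 26.9 to 31.0). Together they were 41.0% of control (interval 39.2 to 42.8) and 62.0% of D-CAN cells (interval 59.8 to 64.2), so that lymphocytes took a larger share of the D-CAN library. Endothelial-like cells were 19.7% of the control and 8.96% of the D-CAN library, and came mainly from clusters 4 and 10 in the control library and from clusters 8 and 4 in the D-CAN library. Fibroblast-like cells were 4.08% and 3.37%, mainly of clusters 12 and 16 in control and of clusters 12 and 14 under D-CAN. As a share of leukocyte-like cells, B cell-like cells were 36.7% and 39.4% and T cell-like cells 27.5% and 34.4%. For this share, the unnamed clusters 3, 7 and 11 were counted as leukocyte-like. Clusters 3, 7, 9 and 11 had leading genes of several cell types or too few markers and stayed unnamed. Cluster 3 was led by Ifng, Ncr1 and Xcl1, cluster 7 by Ighg2b, Ighg1 and Slpi, and cluster 11 by Ccl22, H2-M2 and Apol7c. The leading genes of cluster 9 included Cxcl13 and Mal.

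**Figure D2:**
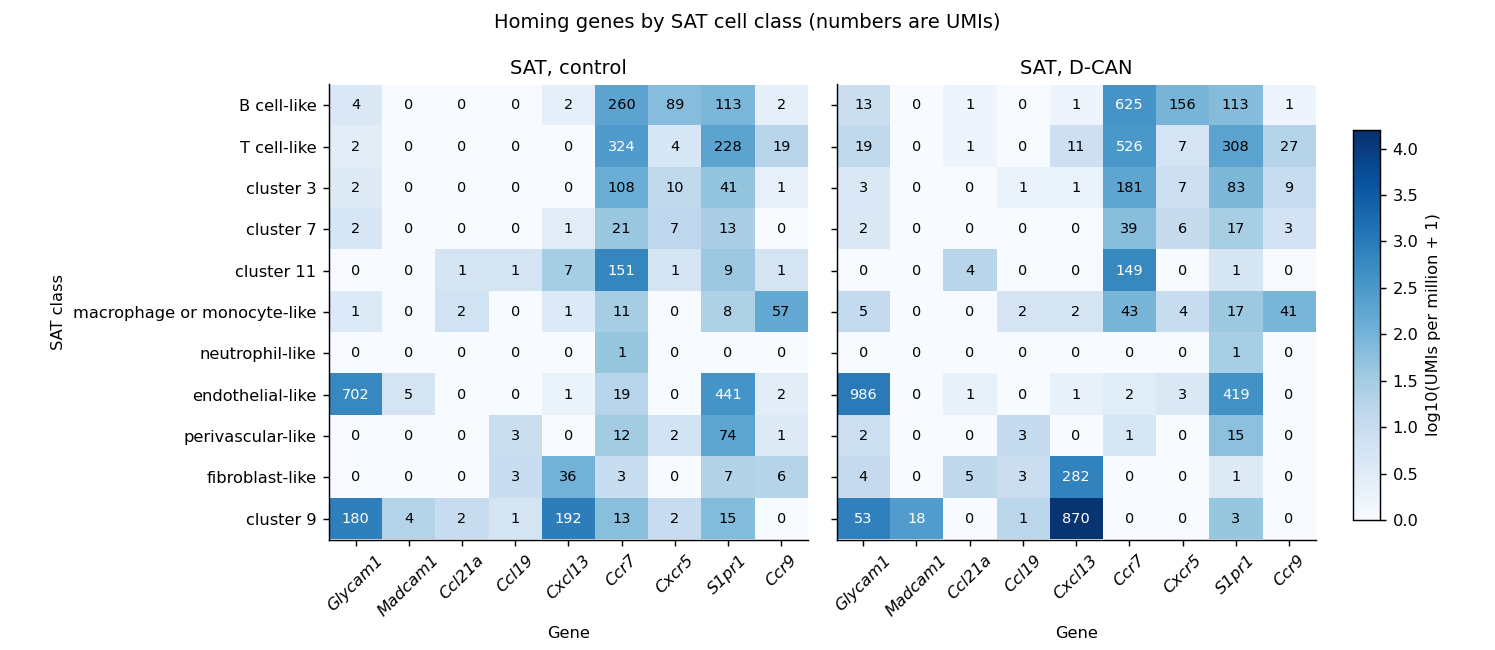
UMIs (numbers) and log10 of CPM plus 1 (colour) of the 9 genes in each class of SAT cells, control on the left and D-CAN on the right. Glycam1 concentrates in endothelial-like cells and cluster 9, Cxcl13 in fibroblast-like cells and cluster 9, Ccr7 in B, T and cluster 11 cells, Cxcr5 in B cells and Ccr9 in the macrophage or monocyte-like class.

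Endothelial-like cells held 702 of the 893 control Glycam1 UMIs (78.6%) and 986 of the 1087 D-CAN UMIs (90.7%). Most of the rest was in cluster 9, with 180 UMIs in control and 53 under D-CAN. This placing rested on the clustering, since with all variable genes used the endothelial-like share was 0.448% in control and 0.460% under D-CAN. To see which cells these were, cells with at least 10 Glycam1 UMIs were looked at one by one, a threshold set after the values were seen. There were 13 such cells in the control library and 4 in the D-CAN library. They fell into 2 sets by Prox1, which encodes the transcription factor of lymphatic endothelium. The genes beside the members in the next 2 paragraphs were likewise chosen after their values were seen.

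The first set had 14 cells, 11 control and 3 D-CAN, all in endothelial-like cluster 4 and all with 0 Prox1 UMIs. They held 1670 Glycam1 UMIs and were shallow, with a median of 790 UMIs per cell. Chst4, which encodes the sulfotransferase of high endothelial cells, had 6 UMIs in 4 of them, and these were the only Chst4 UMIs in SAT. Fut7, the fucosyltransferase that makes selectin ligands, had 11 UMIs in 9 of them, of 35 in SAT. Neither gene had a UMI in the 704 endothelial-like cells without Glycam1. Clu was found in 14 of 14 (179 UMIs, 8615 CPM, against 132 CPM in the cells without Glycam1), Mfge8 in 13 and Enpp2, which encodes autotaxin and is known from high endothelial venules, in 10. Ackr1, another gene of the venule list below, had 1 UMI in the D-CAN cell of 875 Glycam1 UMIs and 0 in the rest of the set. Endothelial-like cells of SAT as a whole stood at 162 Ackr1 CPM. The general endothelial genes Pecam1 and Cdh5 were found in 6 and 2 of the 14. Madcam1 and Dcn were at 0 in the set.

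The second set had 3 cells, 2 control and 1 D-CAN, all in cluster 9, with 101, 78 and 53 Glycam1 UMIs and a median of 6815 UMIs per cell. All 3 held Prox1 (8 UMIs) and 2 Madcam1 UMIs each. Ccl20, a chemokine gene known from the lymphatic endothelium that floors the subcapsular sinus, had 41 UMIs over the 3 cells, with a UMI in each. Pecam1, Cdh5, S1pr1 and Clu were found in all 3, and Mfge8, Chst4 and Fut7 in none. Prox1 parted the sets by choice. Of the other lymphatic genes, Lyve1 had 1 UMI in each set, Flt4 had 3 UMIs in 1 cell of the second set and Mmrn1 had 0 in both. Glycam1 and Madcam1 UMIs met in 3 of the 6 control cells with Madcam1 and in 1 of the 2 D-CAN cells. A comparison of cells chosen by Glycam1 describes those cells and is no test.

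Outside these cells, Glycam1 was spread thinly. Cells with 1 to 9 Glycam1 UMIs were 18 in the control library (0.637% of the others, interval 0.378 to 1.0) and 50 in the D-CAN library (2.64%, interval 1.97 to 3.47). The most in any of them was 5 and 2 UMIs. In the D-CAN library they were found among B cell-like cells (1.91%, interval 0.991 to 3.31), T cell-like cells (2.92%, interval 1.68 to 4.70), fibroblast-like cells (6.25%, interval 1.73 to 15.2) and macrophage or monocyte-like cells (6.85%, interval 2.26 to 15.3), whose median depths ran from 2572 to 5947 UMIs. These classes should lack the gene. Whether these UMIs came from free RNA or from cells captured together was not tested. The library in which the share was higher also held the cell of 875 Glycam1 UMIs and was the deeper of the pair. The part of either in that share was not tested.

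Cxcl13 was found in other cells. At 10 or more Cxcl13 UMIs there were 16 cells, 3 control and 13 D-CAN, and no cell reached 10 UMIs of both Cxcl13 and Glycam1. Of these, 5 were in cluster 9, with 101 and 85 Cxcl13 UMIs in control and 347, 345 and 171 under D-CAN. All 5 held Clu (335 UMIs), Mfge8 (410) and Enpp2 (105), and none held Pecam1. Clu, Mfge8 and Cr2 are known from follicular dendritic cells. Cr2 had 22 UMIs in 2 of the 5, and Tnfsf11, which encodes RANKL and is known from marginal reticular cells, had 7 UMIs in 2. The control cell with Tnfsf11 also held leukocyte transcripts, with 7 UMIs of Ptprc and 2 of Cd3e. The D-CAN cell with Tnfsf11 held 4 of Ptprc and 1 of Cd79a. Whether these cells held RNA of leukocytes captured with them was not tested. The D-CAN cell with Tnfsf11 was the cell with 171 Cxcl13 UMIs, and it also held 16 Madcam1 UMIs and 21 of the 22 Cr2 UMIs. Over all SAT cells, 85.6% of the Cr2 UMIs were in B cell-like cells. Dcn, a fibroblast gene, had 11 UMIs over the 5 cells. The other 196 cells of cluster 9 were unlike these, with a median of 732 UMIs and Dcn in 76.0% of cells.

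A further 10 cells with at least 10 Cxcl13 UMIs were fibroblast-like, 1 control with 13 and 9 D-CAN with 11 to 55. All 10 held Dcn (1664 UMIs in all) and Pdgfra (57), and none held Clu. The last was a cell of a T cell-like cluster in the D-CAN library, with 10 Cxcl13 UMIs among 1016. The fibroblast-like carriers lay in clusters 12 and 14. Among the 170 fibroblast-like cells under 10 Cxcl13 UMIs, 24 held a Cxcl13 UMI (14.1%). Cxcl13 was thus found in cells of cluster 9 with Clu, Mfge8 and Enpp2 and, at lower counts per cell, in fibroblast-like cells. Clu, Mfge8 and Enpp2 were also found in most Glycam1 cells without Prox1, and so were not particular to the Cxcl13 cells.

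**Figure D3:**
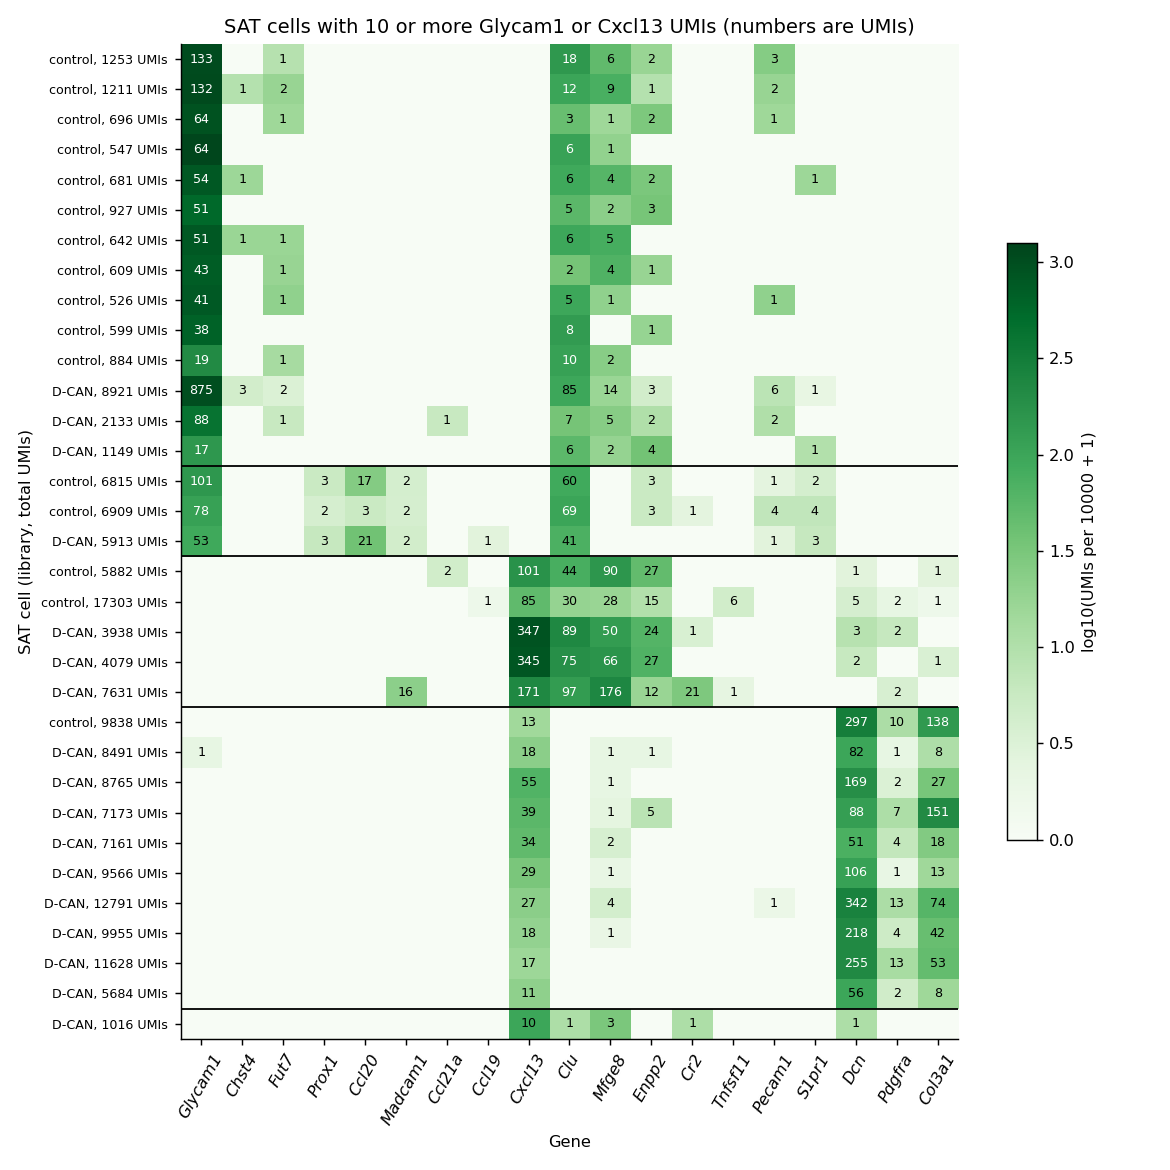
The 33 SAT cells with at least 10 Glycam1 or Cxcl13 UMIs (rows, with library and total UMIs) and 19 genes (columns); numbers are UMIs and colour is a log10 scale of the level within the cell. Lines part the 14 Glycam1 cells without Prox1, the 3 with Prox1, the 5 Cxcl13 cells of cluster 9, the 10 fibroblast-like Cxcl13 cells and 1 cell of a T cell-like cluster.

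Over all kept cells of SAT, 7 members had the 20 UMIs needed to compare D-CAN with control. Cxcl13 was at least 2-fold higher and none was 2-fold lower, where 1.39% of 12725 genes were 2-fold higher and 1.95% lower. Cxcl13 was 4.37-fold higher under D-CAN (interval 3.8 to 5.04). Its ratio was 5.31 (interval 4.43 to 6.40) without the top cell of each library and 5.44 (interval 4.0 to 7.54) without cluster 9. Ccr7 was 1.52-fold higher (interval 1.40 to 1.66) and Cxcr5 1.43-fold higher (interval 1.13 to 1.82). S1pr1 had a ratio of 0.926 (interval 0.846 to 1.01) and Ccr9 one of 0.818 (interval 0.598 to 1.12). The Madcam1 ratio of 1.80 (interval 0.767 to 4.54) rested mostly on 1 cell. Ccl21a and Ccl19 had too few UMIs, with ratios of 2.16 (interval 0.707 to 7.81) and 1.12 (interval 0.399 to 3.27). The median log2 ratio of all genes compared was -0.04.

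**Figure D4:**
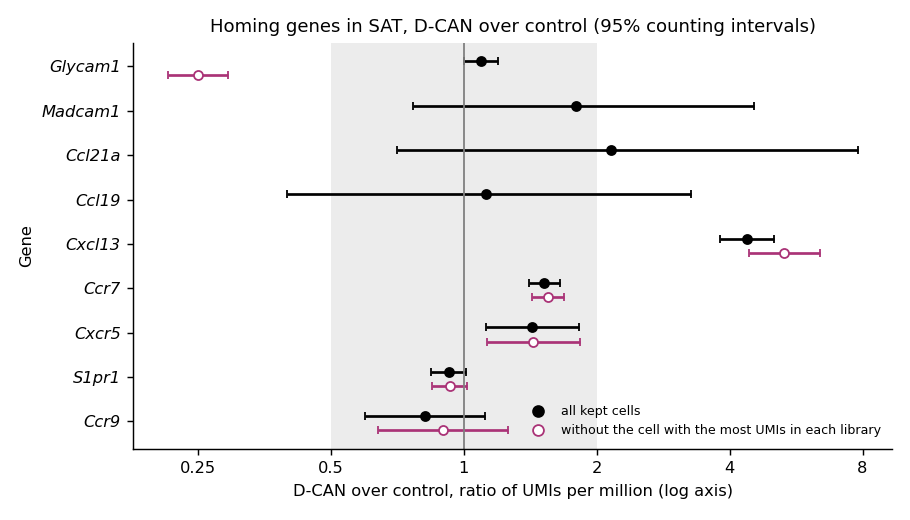
Ratio of CPM in SAT, D-CAN over control (log axis), for each gene over all kept cells (filled) and without the cell with the most UMIs of that gene in each library (open), with 95% counting intervals; the grey band spans ratios from 0.5 to 2. Cxcl13 lies above the band in either case, and Glycam1 moves from 1.09 to 0.251 when the top cells are left out.

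The Cxcl13 difference was seen in both kinds of carrier. Fibroblast-like cells held 36 Cxcl13 UMIs in control (102 CPM) and 282 under D-CAN (732 CPM), a ratio of 7.17 (interval 5.06 to 10.4). In cluster 12 the counts were 18 and 84 UMIs (ratio 3.13, interval 1.87 to 5.54). In cluster 14 they were 18 and 198 UMIs (ratio 10.2, interval 6.32 to 17.6), in 6 of 22 control and 15 of 21 D-CAN cells. Cluster 9 held 192 and 870 UMIs, but from 181 and 23 cells, so that its ratio of 14.8 also moves with how many other cells the cluster held. Fibroblast-like cells had a median of 1566 UMIs in control and 5947 under D-CAN. After each cell was thinned to 1000 UMIs, with shallower cells left out (82 control and 60 D-CAN cells remained), the share of fibroblast-like cells with Cxcl13 was 5.62% and 19.9%, against 10.3% and 34.4% before thinning. In endothelial-like cells, Glycam1 was 1.60-fold higher (interval 1.45 to 1.76), a value that again holds the cell of 875 UMIs: without the top cell of each library the levels were 498 CPM in control and 111 under D-CAN.

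Ccr7 was highest in CPM in cluster 11, with 151 control and 149 D-CAN UMIs (646 CPM, interval 547 to 757, and 595 CPM, interval 503 to 698). This cluster held most of the UMIs of Fscn1, a gene of migratory dendritic cells, which use CCR7 to reach the node. The ratio there was 0.921 (interval 0.730 to 1.16). T cell-like cells had 324 and 526 Ccr7 UMIs (275 and 330 CPM, ratio 1.2, interval 1.04 to 1.38). B cell-like cells had 260 and 625 Ccr7 UMIs (191 and 373 CPM, ratio 1.96, interval 1.69 to 2.27). In cluster 3 the ratio was 1.41 (interval 1.10 to 1.80). The macrophage or monocyte-like class had a higher ratio, 3.18 (interval 1.61 to 6.83), from 11 control and 43 D-CAN Ccr7 UMIs, the latter in 5 cells. The ratio in B cell-like cells was thus above those in T cell-like cells and in cluster 11, with intervals that did not overlap.

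Thinning to 1000 UMIs, with shallower cells left out, set the remaining cells to the same depth. The share of B cell-like cells with Ccr7 was then 15.9% in control (interval 12.9 to 19.1) and 28.2% under D-CAN (interval 24.5 to 31.9), against 25.8% and 48.1% before. For T cell-like cells it was 21.7% and 24.3%, against 39.1% and 45.8% before. In cluster 11 it was 31.8% (interval 19.5 to 48.0) and 41.1% (interval 24.8 to 57.9), against 35.4% and 76.7% before. Endothelial-like cells, which should lack the receptor, gave 2.39% and 0.133% at the same depth. The lymphocyte shares therefore lay well above this background, and the larger gap in cluster 11 before thinning came with median depths of 977 and 5263 UMIs. Many control cells of cluster 11 were thus under 1000 UMIs and left out, so that its shares before and after thinning are of different cells.

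**Figure D5:**
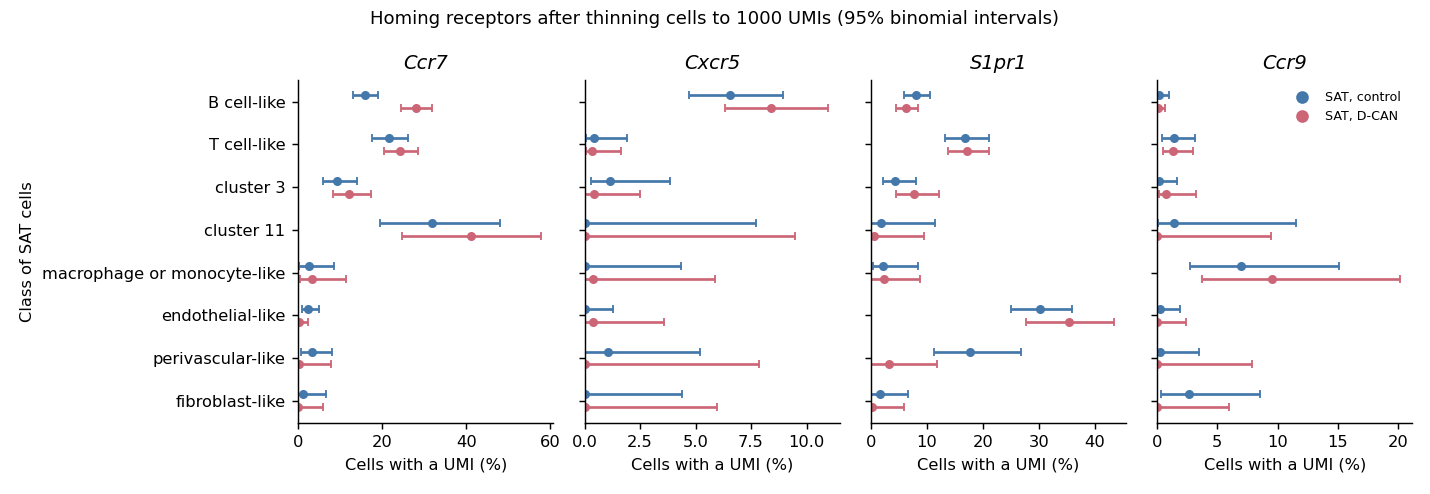
Percent of cells with at least 1 UMI of Ccr7, Cxcr5, S1pr1 or Ccr9 after thinning each cell to 1000 UMIs, by class of SAT cells. Shallower cells were left out. Blue is control, red is D-CAN and bars are 95% binomial intervals. B cell-like cells differ between libraries for Ccr7 (15.9% and 28.2%), and S1pr1 is most frequent in endothelial-like cells (30.2% and 35.5%).

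Most Cxcr5 UMIs were in B cell-like cells, which held 89 of its 115 UMIs in control and 156 of its 183 UMIs under D-CAN. Its level in them was 65.2 CPM in control (interval 52.4 to 80.3) and 93 under D-CAN (interval 79.0 to 109), a ratio of 1.43 (interval 1.09 to 1.87). After thinning, 6.57% and 8.41% of B cell-like cells held Cxcr5, with overlapping intervals. T cell-like cells had 4 and 7 Cxcr5 UMIs. Of the cells with Cxcr5, 28 of 104 in control (26.9%) and 79 of 147 under D-CAN (53.7%) also held Ccr7, shares that move with depth.

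S1pr1 was shared by vessels and lymphocytes. Endothelial-like cells held 441 control and 419 D-CAN UMIs (386 CPM, interval 351 to 424, and 418 CPM, interval 379 to 460), a ratio of 1.08 (interval 0.945 to 1.24). The clusters differed, with 387 and 298 CPM in cluster 4, 423 and 530 in cluster 8, and 282 and 256 in cluster 10. T cell-like cells had 194 and 193 S1pr1 CPM and B cell-like cells 82.8 and 67.4. For both lymphocyte classes the interval of the ratio included 1 (0.838 to 1.19 and 0.621 to 1.07). S1pr1 was higher under D-CAN in cluster 3 (41 and 83 UMIs, ratio 1.70, interval 1.16 to 2.54). In perivascular-like cells it was lower, with 74 and 15 UMIs (189 and 54.4 CPM, ratio 0.288, interval 0.153 to 0.506). After thinning, 17.6% and 3.15% of perivascular-like cells held S1pr1. The endothelial genes Pecam1 and Cdh5 also had UMIs in these cells, at 518 and 365 CPM in control and 355 and 149 CPM under D-CAN, while Rgs5, a pericyte gene, stood at 1928 and 2274 CPM. The part of endothelial RNA in the S1pr1 difference was not tested. Among cells with Ccr7, 136 of 528 in control (25.8%) and 179 of 683 under D-CAN (26.2%) also held S1pr1.

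Ccr9 was mainly in the macrophage or monocyte-like class, with 57 of 89 control and 41 of 81 D-CAN UMIs (152 and 89.1 CPM, ratio 0.585, interval 0.381 to 0.889). Siglech, a gene of plasmacytoid dendritic cells, was among the leading genes of this class and among the genes whose pattern was most like that of Ccr9. Cells of the class were therefore parted at 3 Siglech UMIs, a threshold set after the values were seen. In control, 7 such cells held 53 of the Ccr9 UMIs (6 of 7 with a UMI), and under D-CAN 13 cells held 33 (9 of 13). The cells under 3 Siglech UMIs held 4 and 8. T cell-like cells had 19 and 27 Ccr9 UMIs. Those with a Cd8a or Cd8b1 UMI held 11 Ccr9 UMIs in 9 of 137 cells in control and 19 in 14 of 159 cells under D-CAN. Those with a Cd4 UMI and neither of these held 1 UMI in 71 cells and 0 in 97 cells, which allows up to 3.09% of cells at a count of 0. The intervals of these T cell shares overlapped in control (3.05 to 12.1% and 0.036 to 7.6%) and did not under D-CAN (4.90 to 14.3% and 0 to 3.73%). Since Siglech was taken for its likeness to Ccr9, the split by Siglech describes these cells and is no test.

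Lists of related genes gave the setting of the members. Counts are of genes with at least 20 UMIs that were 2-fold higher or lower under D-CAN over all SAT cells, read beside 1.39% and 1.95% of all genes. Of 13 high endothelial venule genes compared, 0 were higher and 2 lower (median log2 ratio -0.10). The most abundant were Cd34, Podxl and Selp. Selp, which encodes P-selectin, had 92.0% of its UMIs in endothelial-like cells, and Podxl had 86.1% there. Cd34 was highest in CPM in fibroblast-like cells, with 43.4% of its UMIs there, so that Cd34 did not mark vessels alone. The venule list was also found in tumors, at 132 CPM against 334 in SAT. Of 9 lymph node stroma genes, 0 were higher and 2 lower (median -0.06), with Mfge8, Clu and Cr2 the most abundant. Of the Cr2 UMIs in SAT, 85.6% were in B cell-like cells. Mfge8 and Clu were also frequent in tumors, so that this list alone does not mark node tissue: its level was 312 CPM in SAT and 316 in tumors. Of 5 lymphatic endothelium genes, 2 were higher and 0 lower (median 0.48), with Flt4 at 35 and 36 UMIs, Prox1 at 12 and 37 and Lyve1 at 14 and 22 in control and D-CAN. The 2 higher genes were Prox1 and Reln (2 and 18 UMIs). Mmrn1 had 0 and 16 UMIs, too few to be compared. Of the Lyve1 UMIs in SAT, 86.1% were in macrophage or monocyte-like cells, so that Lyve1 did not mark lymphatic endothelium alone.

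Of 8 migratory dendritic cell genes, 0 were higher and 1, Ccl17, was lower (83 and 10 UMIs), with a median of 0.13. Tmem123, Fscn1 and Relb were the most abundant, and cluster 11 held 69.8% of the Fscn1 UMIs. Of 13 naive lymphocyte genes, 0 were 2-fold higher or lower (median 0.18), with Klf2, a transcription factor of quiescent T cells that drives S1pr1, and the B cell receptor chains Ighm and Ighd the most abundant. The list stood at 2744 CPM in SAT and 246 in tumors. Of 12 other trafficking genes, 0 were 2-fold higher or lower (median 0.17), led by Cd69, Gpr183 and Cxcr4. Of 6 germinal centre genes, 0 were higher and 1, Mef2b, was lower (median -0.47). Fas, Bcl6 and Rgs13 were the most abundant, with 95.2% of Rgs13 UMIs in cluster 7. Of 4 lymphotoxin and related genes compared, 0 were 2-fold higher or lower (median -0.26), with Ltb at 495 and 502 CPM in control and D-CAN, followed by Tnfrsf1a and Tnf.

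Of the lists, node macrophage genes had the highest median log2 ratio, 2.46. Of 3 compared, 2 were higher and 0 lower under D-CAN. Marco, a scavenger receptor gene of medullary and marginal zone macrophages, had 3 UMIs in control and 75 under D-CAN (ratio 22.5, interval 7.40 to 111). Cd209b, which encodes the lectin SIGN-R1, had 22 and 137 (ratio 5.59, interval 3.55 to 9.22). Siglec1, a gene known from subcapsular sinus macrophages, had 16 and 17. In control and D-CAN tumors, Siglec1 had 86 and 74 UMIs, Marco 7 and 1, and Cd209b 2 and 18. Siglec1 thus did not mark node macrophages alone. The macrophage or monocyte-like class held 92.3% of the Marco and 96.2% of the Cd209b UMIs, although this class was 5.25% of control and 3.85% of D-CAN cells.

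Across the 17 SAT clusters, the genes most like each member by Pearson correlation of log2 levels were Serpina1b (r = 0.81), Ctnnal1 (0.77) and Fxyd6 (0.72) for Glycam1, and Dpep1 (0.90), Scara5 (0.90) and Abca8a (0.88) for Cxcl13. Ccr7 was most like Gpr183 (0.95), Stk4 (0.92) and Tespa1 (0.89), and Cxcr5 like Tnfrsf13c (0.93), Gm31243 (0.90) and Cd72 (0.89). S1pr1 was most like Gimap4 (0.90), Fryl (0.90) and Fli1 (0.89), and Ccr9 like Lair1 (0.93), Siglech (0.83) and Gltp (0.83). Each r is over 17 clusters that share the same libraries and differ in depth, and is a description.

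Whether the cells that carried Glycam1 and Cxcl13 and the lymphocytes around them came from a node in the suspension or from the fat itself was not tested. With 1 library per group, the treatment and the dissection of a library cannot be told apart.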

How the data were processed

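Single-cell libraries of tumor and SAT from control and D-CAN mice (1 each) were prepared with the 10x 3′ v3 kit and sequenced on a NextSeq 550. The authors aligned reads with Cell Ranger 3.1.0 (STAR 2.6) against mm10 and the genes of Ensembl 93. The deposited values are raw UMI counts of each gene in each called cell. The header of the SAT D-CAN matrix names version 3.0.2 and the others 3.1.0. The effect of this was not tested.

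The members and gene lists were chosen with earlier results of these data known. Cells with at least 200 genes were kept (8986 of 9128). The libraries of each tissue were merged and clustered in Seurat 5.3.0 (R 4.3.3) with 2000 variable genes, less the members and companion genes, 10 principal components and a resolution of 0.8. A cluster was named after a class when 3 or more of that class's markers were detected and its 10 leading genes did not favour another class. Scrublet in scanpy 1.11.5 marked 16 cells of 178 expected, which was read as a failure of the caller, and doublets were left in. Sums, intervals, thinned shares (the expected share after drawing 1000 UMIs per cell without replacement) and correlations were computed in Python 3.11.15 with NumPy 2.4.6, pandas 2.3.3 and SciPy 1.17.1, and the calculations were tested on simulated data. Log2 ratios had 0.5 UMI added. Gene positions are from GENCODE annotation of GRCm38, and promoter sequences from RefSeq.

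The genes named were the 9 members, the 3 genes with the most UMIs in each companion list and, for members with at least 50 UMIs in SAT, the 3 genes with the highest correlation among genes with at least 100 UMIs. Other genes were named after their values were seen, as were the thresholds of 10 UMIs for carrier cells and 3 for Siglech. The alternatives were filters of 500 genes or of 20% mitochondrial UMIs, removal of the expected number of doublets, 20 components, resolutions of 0.4 and 1.2, all variable genes, other thinning depths and UMI minimums, and tumors without cancer-marked clusters. Levels without the top cell or without cluster 9, and carriers at 5 or 20 UMIs, were added after the data had been seen. UMI counts from a 3′ assay were not compared between genes per length.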

Additional observations from a re-analysis of the deposited data

How the results depend on the processing

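No paired analysis was possible because each group had 1 library. Of 597 values under alternatives, 475 were counted as unchanged and 122 as moved. A value was unchanged when it lay within the interval of the main value. Counts of members or of carrier cells have no interval and were unchanged when within a fixed fold of the main count. The Glycam1 ratio of D-CAN over control in SAT passed from 1.09 to the other side of 1, at 0.251, without the top cell of each library. Over 7 alternatives the Glycam1 ratio ran from 0.251 to 1.76, and in 6 of them it stayed above 1. The ratios of Cxcl13, Ccr7, Cxcr5, S1pr1 and Ccr9 stayed on their side of 1 under the alternatives run. That of Madcam1 did so under 4 alternatives, but without its top cells it had too few UMIs to be compared. Its SAT levels were then 1.05 CPM in control and 0.270 CPM under D-CAN, the reverse of the order over all cells. The number of members 2-fold higher under D-CAN in SAT was 2 with cells of at least 500 genes (Madcam1 added) and 2 with genes of at least 1 UMI (Ccl21a added), and 1 was 2-fold lower without the top cell of each member (Glycam1). The Cxcl13 ratio ran from 4.12 to 5.44 over 7 alternatives, and the Ccr7 ratio from 1.48 to 1.56. Against tumors without cancer-marked clusters, 1 member was lower in D-CAN SAT (Ccl21a). The share of control Glycam1 UMIs in endothelial-like cells was 62.9% with at least 500 genes, 74.9% without the top cell and 0.448% when all variable genes were used, and that of D-CAN Glycam1 UMIs was 52.4% without the top cell and 0.460% with all variable genes. With all variable genes the Glycam1 cells thus fell outside this class, so that the class of these cells depends on the clustering while the genes they hold do not. B cell-like cells took 27.8% (500 genes) and 21.1% (20 components) of the control library and 35.7% of the D-CAN library (20% mitochondrial UMIs). T cell-like cells were 16.1% (mitochondrial UMIs), 22.5% (20 components), 25.5% (resolution 1.2) and 19.9% (all variable genes) of the control library, and 25.4% (500 genes), 25% (mitochondrial UMIs), 34.8% (20 components), 26.3% (resolution 0.4), 37.9% (resolution 1.2) and 31.3% (all variable genes) of the D-CAN library. Both classes kept a larger share under D-CAN in each of these 7 alternatives. At 2 UMIs to hold a gene, 9.68% of control and 9.87% of D-CAN Ccr7 cells held S1pr1. Cxcl13 carriers were 5 in control at 5 UMIs and 8 under D-CAN at 20 UMIs. The cause of these shifts was not tested. Depth limits the rare members: Madcam1, Ccl21a and Ccl19 had 5 to 18 UMIs per SAT library, and their ratios have intervals that include 1.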
